A study of Homo sapiens with 6 samples.

Results

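The mitochondrial ribosomal protein genes were taken as the protein-coding rows of the expression table whose symbol starts with MRPL or MRPS and a number. This rule found 78 rows of 57820, carrying 76 symbols: 48 of the large subunit (MRPL) and 30 of the small subunit (MRPS). MRPL30 and MRPS17 each had 2 rows, and the second row of each overlapped the first on the same strand. All 78 rows passed the filter on low counts, which kept 14044 genes for testing. Another 67 rows with MRPL or MRPS symbols had other biotypes and were not members.

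Total RNA was sequenced from SEM cells, a human B-cell acute lymphoblastic leukemia line, in 3 CTCF-WT and 3 CTCF-dRBR libraries. In both groups the endogenous CTCF carries a miniAID-mClover3 tag, and a plant-derived OsTIR1 variant is expressed constitutively, so that the auxin analog 5-Ph-IAA triggers degradation of the tagged protein. All cells were treated with 5-Ph-IAA for 24 h in total, and doxycycline at 1 µg/mL was added for the last 18 h to induce HA-tagged CTCF, either wild type (CTCF-WT) or lacking the RNA-binding region (CTCF-dRBR). The labels name the HA transgene for CTCF-dRBR only, and the CTCF-WT libraries were assigned from their titles. The comparison asks how the loss of the RNA-binding region of CTCF changes gene expression, here for the mitochondrial ribosome.

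The mitochondrial ribosome translates the messenger RNAs of the mitochondrial genome, which encode core subunits of the respiratory chain and the ATP synthase. Its ribosomal RNAs are transcribed in the organelle, whereas all of its proteins are encoded in the nucleus, made in the cytosol and imported. Many of these proteins descend from bacterial ribosomal proteins and others were added in mitochondria. Their names do not always give their place: MRPS30 and MRPS18A are built into the large subunit, and MRPS36 is now assigned to the 2-oxoglutarate dehydrogenase complex. These 3 rows are counted here with the small subunit, as their symbols and the rule place them.

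Library totals ranged from 51732177 to 53166735 expected counts in CTCF-WT and from 30034505 to 50457168 in CTCF-dRBR, with CTCF-dRBR replicate 1 the shallowest. That replicate also stood apart in base composition. Across 13654 tested genes, the Spearman correlation between the GC content of a gene's exons and its deviation from the mean of the 6 libraries was 0.71, 0.67 and 0.34 in CTCF-WT and −0.78, −0.42 and 0.50 in CTCF-dRBR replicates 1, 2 and 3. GC-rich genes were relatively low in CTCF-dRBR replicates 1 and 2, and CTCF-dRBR replicate 3 lay within the range of CTCF-WT. *CTCF* (ENSG00000102974.10) had CPM (counts per 1e6, scaled by TMM) of 209.9, 211.2 and 248.6 in CTCF-WT and 272.8, 263.7 and 252.1 in CTCF-dRBR, and reads of the endogenous and the induced form could not be told apart in this row. Of 8 B-lineage markers 7 reached 1 CPM in any library, with a summed level of 882.5 to 1067 CPM in CTCF-WT and 608.9 to 1023 CPM in CTCF-dRBR. Of 4 T cell, 3 erythroid and 3 stromal markers none reached 1 CPM, and of 4 myeloid markers only LYZ did, with a summed level of 5.56 to 6.76 CPM over all 6 libraries.

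The promoters of these genes carry short motifs in common, and the windows of 3 genes from the extremes of the comparison and of 1 gene from a head-to-head pair are shown. In the RefSeq table of GRCh38.p14, windows from 250 bases before to 50 bases after the annotated start were matched for 67 member genes. The ETS core CCGGAAG was present on either strand in 43.3% of the member genes (29 of 67), against 12.2% of all 27305 genes of the table. The YY1 motif AAGATGGC was present in 31.3% (21) against 3.52%, and the NRF1 motif GCGCATGCG in 4.48% (3) against 2.34%. At least 1 of the 3 motifs was found in 64.2% of the member genes and 16.6% of all genes. The shares were close in the subunits, with the ETS core in 42.5% of large and 44.4% of small subunit genes and the YY1 motif in 32.5% and 29.6%. Matches of different motifs share no letters in the windows printed here, and a match describes letters in the window and not binding. The windows below are written 5′ to 3′ along the gene's strand, with matched motifs in capitals (GCCATCTT is the YY1 motif and CTTCCGG the ETS core read from the other strand). They belong to MRPS12 (chr19:38930694-38930993, plus strand), which had the lowest fold change of all members, MRPL12 (chr17:81703117-81703416, plus strand), which had the smallest p, MRPS30 (chr5:44808697-44808996, plus strand), the small subunit member with the most positive fold change, and MRPL46 (chr15:88467339-88467638, minus strand).
MRPS12: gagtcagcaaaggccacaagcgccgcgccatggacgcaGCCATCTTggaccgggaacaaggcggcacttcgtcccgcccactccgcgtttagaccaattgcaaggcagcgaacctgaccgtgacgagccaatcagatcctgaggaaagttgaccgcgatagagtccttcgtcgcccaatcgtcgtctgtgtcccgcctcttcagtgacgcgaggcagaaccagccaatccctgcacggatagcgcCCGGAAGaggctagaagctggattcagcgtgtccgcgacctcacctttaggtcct
MRPL12: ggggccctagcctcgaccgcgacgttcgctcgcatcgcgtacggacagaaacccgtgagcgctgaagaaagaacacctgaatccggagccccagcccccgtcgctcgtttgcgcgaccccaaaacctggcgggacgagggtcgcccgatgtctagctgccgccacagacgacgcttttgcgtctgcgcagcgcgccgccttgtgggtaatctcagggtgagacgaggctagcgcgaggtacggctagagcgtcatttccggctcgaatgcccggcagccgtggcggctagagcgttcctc
MRPS30: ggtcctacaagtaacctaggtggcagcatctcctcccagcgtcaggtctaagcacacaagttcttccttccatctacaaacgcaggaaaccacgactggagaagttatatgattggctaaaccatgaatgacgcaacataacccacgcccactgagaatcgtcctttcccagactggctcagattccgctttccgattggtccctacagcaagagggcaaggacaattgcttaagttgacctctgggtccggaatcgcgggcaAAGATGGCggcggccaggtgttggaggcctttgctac
MRPL46: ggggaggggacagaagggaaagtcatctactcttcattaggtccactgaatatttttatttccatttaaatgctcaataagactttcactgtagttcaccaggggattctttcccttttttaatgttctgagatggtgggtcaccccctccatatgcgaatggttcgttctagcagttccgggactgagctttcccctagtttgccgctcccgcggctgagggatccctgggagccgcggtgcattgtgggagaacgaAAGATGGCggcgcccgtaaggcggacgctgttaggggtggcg
MRPS12 held both the YY1 and the ETS letters, MRPS30 and MRPL46 held the YY1 letters just after the start, and MRPL12 held none of the 3. MRPL46 lies head to head with MRPS11: in the GRCh37 annotation their starts, at 89010621 and 89010684 on chromosome 15, are 63 bases apart on opposite strands. The RefSeq starts used for the windows differ. There the windows of MRPL46 and MRPS11 span 88467339 to 88467638 and 88467458 to 88467757, which places the starts further apart. MRPL46 had 32.5, 31.6 and 34.7 CPM in CTCF-WT and 29.7, 29.5 and 29.7 in CTCF-dRBR, and MRPS11 had 29.4, 30.1 and 33.2 against 25.0, 32.5 and 29.1. MRPL46 was lower without overlap by less than 2 CPM and MRPS11 overlapped, and neither fold change passed the test (limma-voom log2 fold changes −0.15 ± 0.10 and −0.09 ± 0.13 (SE), adjusted p = 0.32 and 0.64).

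More members were lower than higher in CTCF-dRBR on the CPM scale, by a small amount, and none passed the adjusted test. The median log2 fold change was −0.27 over the 48 large subunit rows and −0.17 over the 30 small subunit rows, against −0.0076 over all genes tested. The sign was negative for 36 large and 21 small subunit rows, or 57 of 78, where 50.6% of all genes were below 0. The members had shorter exons than all tested genes (median total 2571.5 against 4971.5 bases). With a smooth trend over exon length subtracted from each library, the medians were −0.11 and −0.14, against 0.055 over all genes. In that fit 47 of 76 members were negative, where 45.9% of all genes were. On the scale of log2(TPM + 1) the medians were positive, 0.24 and 0.35, and so was that of all genes, at 0.40. By limma-voom with Benjamini-Hochberg adjustment, 0 members and 0 of all 14044 genes (0%) passed FDR 0.05. At an unadjusted p under 0.05, 19 large and 11 small subunit rows were lower and 0 were higher, where 12.8% of all genes were lower and 12.6% higher. edgeR's quasi-likelihood test also called 0 members and 0 of all genes (0%), with 27 members lower and 1 higher at an unadjusted p under 0.05 against 11% and 13.7% of all genes. Nothing in the labels says whether the libraries of a group came from separate cultures, so these p-values measure the spread between the libraries, which may be technical. RNA was measured in bulk, so fewer cells with a transcript and less of it per cell cannot be told apart.

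Many members did not overlap between the groups. All 3 CTCF-dRBR libraries were below all 3 CTCF-WT libraries in CPM for 21 large and 13 small subunit rows, 34 of 78 or 43.6%, where 17.5% of all genes did so. All 3 were above for MRPS14 and MRPS30 (2.56%), where 20% of all genes did so. A log2 fold change below −1 was found for 10 members (5.5% of all genes) and one above 1 for 1 member, MRPL30 (2.25% of all genes).

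**Figure D1:**
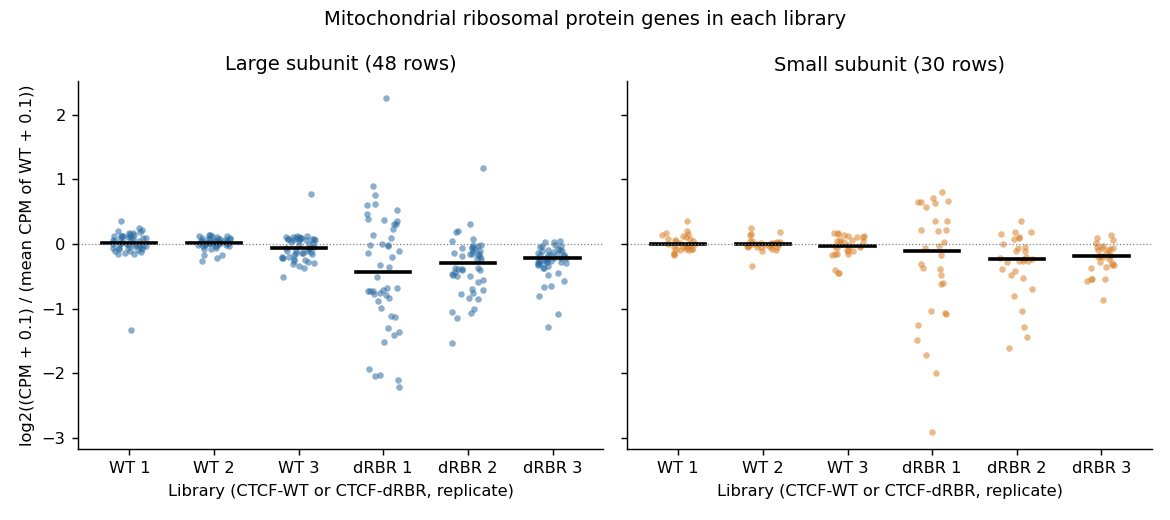
Each point is a member row, plotted as the log2 ratio of its CPM to its mean over the CTCF-WT libraries (0.1 CPM added to both) against the library, with the large subunit at left and the small subunit at right. Black bars are medians; the CTCF-dRBR medians lie below 0 in all 3 replicates, and CTCF-dRBR replicate 1 has the widest spread.

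The CTCF-dRBR libraries differed from each other in how the members moved. In CTCF-dRBR replicate 1, the median deviation from the CTCF-WT mean was −0.43 for the large and −0.11 for the small subunit on the log2 CPM scale. The medians were −0.30 and −0.23 in CTCF-dRBR replicate 2, and −0.22 and −0.18 in CTCF-dRBR replicate 3. Within CTCF-WT they stayed between −0.06 and 0.03. CTCF-dRBR replicate 1 held the lowest of the 6 values for 38 members and the highest for 27, so that it set the extremes in both directions. Taken alone, it was below all CTCF-WT libraries for 44 members and above all of them for 27, where 46.2% and 44.9% of all genes were. CTCF-dRBR replicate 3 was below all CTCF-WT libraries for 56 members (71.8%) and above them for 2, where 28.5% and 33.2% of all genes were. CTCF-dRBR replicate 2 was below for 54 and above for 8, where 40.8% and 37.6% of all genes were.

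Among the large subunit proteins, the member with the smallest p was MRPL12 (ENSG00000262814.2; GRCh37 chromosome 17, 79670397 to 79674547, plus strand, overlapping another coding row on the same strand), the stalk protein that recruits translation factors to the ribosome. MRPL12 had 29.2, 27.4 and 22.7 CPM in CTCF-WT and 6.44, 9.07 and 10.8 in CTCF-dRBR. The CTCF-dRBR values were all far below the lowest CTCF-WT value, and they rested on 193 to 557 expected counts a library. The group means were 26.4 ± 3.34 and 8.77 ± 2.20 CPM (SD, n = 3), and the limma-voom log2 fold change was −1.59 ± 0.21 (SE) with an adjusted p of 0.096. It was −0.73 after the GC trend of each library was subtracted, as in the comparison with GC content (limma-voom adjusted p = 0.11), and MRPL12 has an exon GC content of 64.6%. Per length, MRPL12 stood 70th of the 78 rows by mean TPM (the length-corrected share of transcripts), at 17.4 ± 3.08 in CTCF-WT and 8.10 ± 1.35 in CTCF-dRBR.

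MRPL4, MRPL2 and MRPL24 belong to the ribosomal proteins shared with bacteria: MRPL4 lines the exit tunnel, MRPL2 lies close to the peptidyl transferase center, and MRPL24 binds ribosomal RNA during assembly. MRPL4 (ENSG00000105364.9; chromosome 19, 10362577 to 10370731) had 38.7, 39.6 and 30.2 CPM in CTCF-WT against 8.39, 17.1 and 22.8 in CTCF-dRBR. MRPL2 (ENSG00000112651.7; chromosome 6, 43021767 to 43027176, overlapping *KLC4* on the other strand) had 34.6, 34.6 and 25.7 against 11.0, 15.2 and 18.1. MRPL24 (ENSG00000143314.8; chromosome 1, 156707095 to 156711382) had 27.9, 28.3 and 24.9 against 15.2, 14.9 and 18.1. The groups were separate in each of the 3 genes, with CTCF-dRBR lower, and the CTCF-dRBR libraries lay closer together for MRPL24 than for MRPL4. Their limma-voom log2 fold changes were −1.22 ± 0.33, −1.09 ± 0.22 and −0.75 ± 0.13 (SE), with adjusted p of 0.14, 0.11 and 0.096.

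MRPL20, another protein with a bacterial counterpart, acts early in assembly of the large subunit. It had 59.0, 59.9 and 58.3 CPM in CTCF-WT and 34.8, 42.8 and 45.5 in CTCF-dRBR. The CTCF-WT libraries were nearly equal (59.1 ± 0.807 CPM, SD, n = 3), and the CTCF-dRBR libraries were all lower (41.0 ± 5.59). The limma-voom log2 fold change was −0.52 ± 0.12 (SE), adjusted p = 0.12. MRPL41 and MRPL52 are proteins without a bacterial counterpart. MRPL41 had 16.1, 16.5 and 12.1 CPM in CTCF-WT and 6.82, 8.76 and 11.7 in CTCF-dRBR (limma-voom log2 fold change −0.71 ± 0.24 (SE), adjusted p = 0.16). MRPL52 had 52.6, 51.3 and 44.7 against 29.9, 33.6 and 41.4 (−0.49 ± 0.15, adjusted p = 0.15). In both the groups did not overlap, by less than 1 CPM for MRPL41, whose fold change turned to 0.23 with the GC trend subtracted.

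Other large subunit genes named by the rule had smaller or positive fold changes. MRPL3, a protein near the peptidyl transferase center and the member with the most counts, had 145.8, 163.5 and 177.6 CPM in CTCF-WT and 209.7, 154.7 and 143.2 in CTCF-dRBR. Its group means were 162.3 ± 15.9 and 169.2 ± 35.5 CPM (SD, n = 3), and the ranges overlapped. MRPL42 had 112.2, 122.6 and 129.3 against 225.1, 150.4 and 124.6, with CTCF-dRBR replicate 1 far above the rest (limma-voom log2 fold change 0.41 ± 0.22 (SE), adjusted p = 0.25). MRPL51 had 109.9, 100.8 and 90.9 against 93.0, 77.9 and 80.0 (−0.27 ± 0.12, limma-voom adjusted p = 0.21). MRPL22, which lines the exit tunnel, had 16.5, 10.7 and 11.4 against 10.3, 11.9 and 11.98, so that CTCF-WT replicate 1 alone stood above the CTCF-dRBR libraries.

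MRPL30 had the largest standard error of the 26 named members. Its longer-known row (ENSG00000185414.15; chromosome 2, 99797615 to 99816024) had 3.66, 8.27 and 16.1 CPM in CTCF-WT and 45.3, 21.2 and 9.52 in CTCF-dRBR. The order of the 6 libraries, from CTCF-WT replicate 1 to CTCF-dRBR replicate 1, was the reverse of their order by GC correlation, and the part of base composition in it was not tested. The limma-voom log2 fold change was 1.32 ± 0.72 (SE), adjusted p = 0.26, and the groups overlapped. The second row (ENSG00000273155.1; chromosome 2, 99771461 to 99811761) overlaps MRPL30 and LIPT1 on the same strand and MITD1 on the other. It had 1.04, 0.833 and 1.07 CPM against 0.446, 0.438 and 0.411, from 13.3 to 56.7 expected counts a library (−1.16 ± 0.24, limma-voom adjusted p = 0.11). The 2 rows went in opposite directions, and since the counting had to divide shared reads between them, both levels are uncertain.

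Of the small subunit, MRPS12, a protein of the decoding center, had the most negative fold change of all members. MRPS12 (ENSG00000128626.7; chromosome 19, 39421584 to 39423808) had 42.1, 41.2 and 27.04 CPM in CTCF-WT and 4.82, 12.02 and 20.1 in CTCF-dRBR, resting on 144 counts in CTCF-dRBR replicate 1. The groups did not overlap, but CTCF-WT replicate 3 and CTCF-dRBR replicate 3 were closer to each other than to the extremes of their own groups. The limma-voom log2 fold change was −1.72 ± 0.47 (SE), adjusted p = 0.14.

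MRPS34, a mitochondria-specific protein of the small subunit, had 72.3, 73.6 and 47.1 CPM in CTCF-WT and 22.9, 26.4 and 44 in CTCF-dRBR (limma-voom log2 fold change −1.05 ± 0.29 (SE), adjusted p = 0.14). MRPS34 overlaps *EME2* on the other strand. MRPS7, a primary rRNA-binding protein of the head, had 62.5, 59.1 and 52.1 against 45.0, 33.2 and 39.8 (−0.58 ± 0.14, limma-voom adjusted p = 0.13). MRPS15 had 53.7, 51.0 and 47.8 against 33.1, 36.4 and 43.3 (−0.43 ± 0.13, limma-voom adjusted p = 0.15). The fold change of MRPS34 was −0.22 once the GC trend was subtracted. The groups were separate in all 3 genes, and CTCF-dRBR replicate 3 came nearest to CTCF-WT for MRPS34 and MRPS15 but not for MRPS7.

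MRPS2 had 26.8, 23.7 and 21.4 CPM in CTCF-WT and 5.95, 14.7 and 18.4 in CTCF-dRBR (limma-voom log2 fold change −0.97 ± 0.38 (SE), adjusted p = 0.19), and −0.21 with the GC trend subtracted. MRPS17 (ENSG00000239789.1), an rRNA-binding protein, had 26.7, 27.2 and 26.4 against 27.4, 23.4 and 20.8, with overlap. Its second row (ENSG00000249773.3; chromosome 7, 55954970 to 56022932), which overlaps MRPS17, NIPSNAP2 and ZNF713 on the same strand, had 2.66, 2.63 and 3.09 against 1.27, 0.963 and 1.84. As with MRPL30, the low second row is uncertain because reads could be divided between the rows.

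MRPS30 and MRPS14 were the only members with every CTCF-dRBR library above every CTCF-WT library. MRPS30, which has no bacterial counterpart, had 93.9, 105.3 and 113.5 CPM in CTCF-WT and 183.2, 133.0 and 115.1 in CTCF-dRBR. MRPS14 had 35.4, 38.6 and 39.1 against 59.6, 41.9 and 40.4. In both, CTCF-dRBR replicate 1 was highest by far and CTCF-dRBR replicate 3 lay next to CTCF-WT replicate 3. The limma-voom log2 fold changes were 0.43 ± 0.18 and 0.28 ± 0.17 (SE), with adjusted p of 0.20 and 0.29. MRPS28 had 40.5, 39.3 and 38.3 against 45.7, 33.4 and 34.1, and its ranges overlapped.

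The 3 paralogs of MRPS18 had fold changes of different sign, but 2 of these signs depended on the processing. MRPS18B, a small subunit protein, had 80.8, 75.2 and 66.9 CPM in CTCF-WT and 31.3, 55.9 and 59.5 in CTCF-dRBR (limma-voom log2 fold change −0.61 ± 0.24 (SE), adjusted p = 0.19). MRPS18A, the paralog built into the large subunit, had 18.9, 18.1 and 17.9 against 8.63, 15.3 and 16.0 (−0.48 ± 0.24, limma-voom adjusted p = 0.23). MRPS18C, the paralog that takes the place of bacterial S18, had 41.6, 41.3 and 40.5 against 61.3, 39.8 and 36.3 (0.08 ± 0.20, limma-voom adjusted p = 0.78). CTCF-dRBR replicate 1 was the lowest library for MRPS18A and MRPS18B and the highest for MRPS18C, and the GC content of their exons was 57.7%, 51.1% and 37.3% in the order A, B, C. The fold change of MRPS18C was −0.12 when CTCF-dRBR replicate 1 was left out. Subtracting the GC trend gave −0.24 for MRPS18C, turned the value of MRPS18A to 0.049 and left MRPS18B at −0.46. No test of the difference between paralogs was made.

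**Figure D2:**
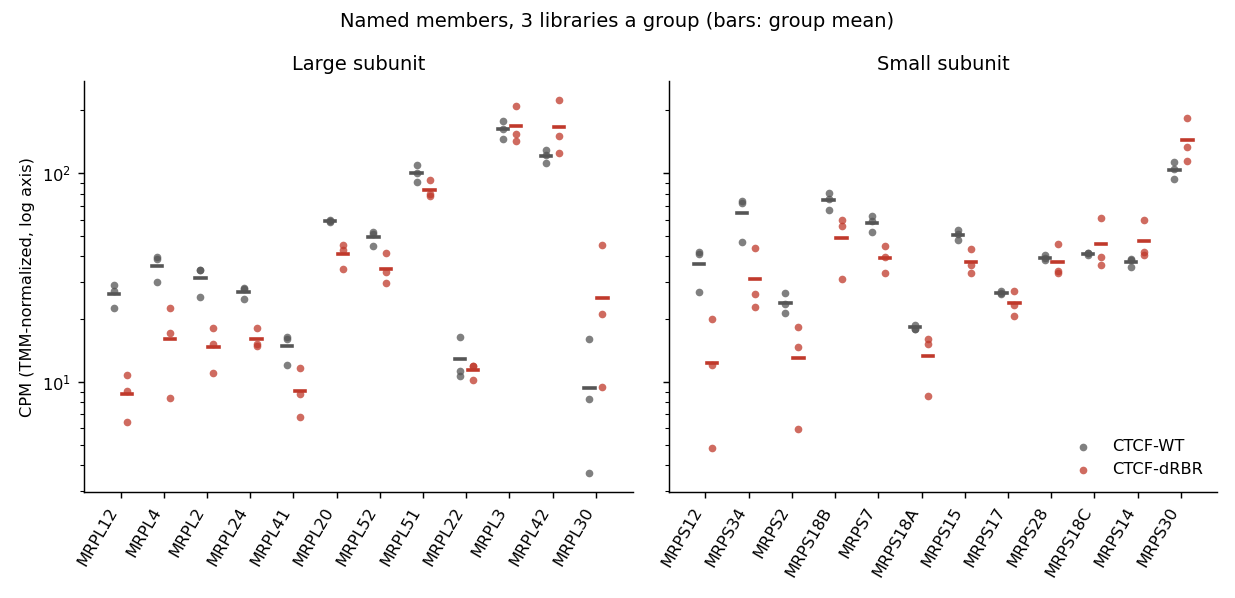
Points are the CPM of the named members in the 3 CTCF-WT (grey) and 3 CTCF-dRBR (red) libraries on a log axis, with bars at the group means and genes in order of their log2 fold change, the low-level second rows of MRPL30 and MRPS17 left out. MRPL12 and MRPS12 show the largest separation downward, and MRPL30 the widest spread.

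The fold change of the members followed the GC content of their exons. Among 76 members with a GC value (all but MRPL45 and MRPS21), Spearman's rho between GC content and log2 fold change was −0.82, and over all tested genes it was −0.68. The genes share the same 6 libraries, so this is a description with no p. The 26 members with the lowest GC content, from 35.01% to 42.5%, had a median log2 fold change of 0.09, and 7 of them were negative. The 24 in the middle, from 43.2% to 52.0%, had a median of −0.33 with 22 negative, and the 26 highest, from 52.4% to 66.7%, had a median of −0.71 with all 26 negative. All tested genes in the same ranges had medians of 0.27, 0.013 and −0.51. In each range the median of the members was below that of all genes.

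The 20 large and 6 small subunit rows with the highest GC content were lowest in CTCF-dRBR replicate 1. Their median deviation from the CTCF-WT mean was −1.12, −0.69 and −0.32 in CTCF-dRBR replicates 1, 2 and 3 on the log2 CPM scale. For the lowest GC range it was 0.50, 0.000043 and −0.067, and for the middle range −0.42, −0.37 and −0.26. The CTCF-WT libraries spanned −0.082 to 0.088 in the lowest range, −0.071 to 0.050 in the middle and −0.15 to 0.093 in the highest. CTCF-dRBR replicate 3 was below that span in the middle and highest ranges and inside it in the lowest, where CTCF-dRBR replicate 1 was above it and CTCF-dRBR replicate 2 inside it. How far base composition accounts for the differences between the groups was not tested, because a GC trend and a response of GC-rich genes cannot be told apart in these libraries.

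**Figure D3:**
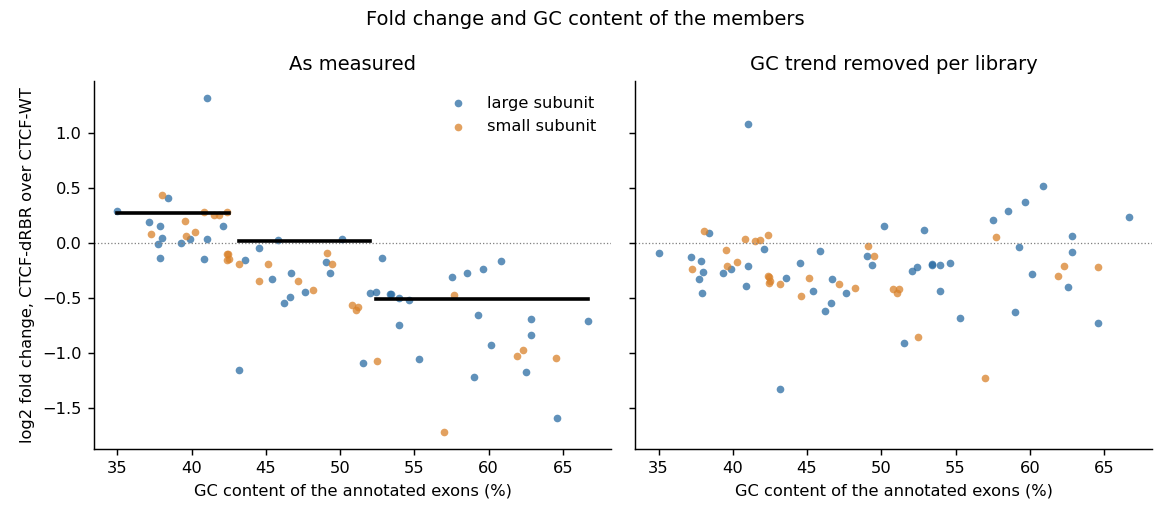
Each point is a member row, with exon GC content (%) against the log2 fold change as measured (left) and after a smooth GC trend was subtracted from each library (right), colored by subunit. Black lines at left are the medians of all tested genes in the same GC ranges, 0.27, 0.013 and −0.51, and most members lie below them.

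When the GC trend of each library was subtracted, the members kept a negative median. The median log2 fold change was −0.20 for the large and −0.30 for the small subunit, against −0.0099 over all genes, and 60 of 76 members were negative. Spearman's rho between exon GC content and log2 fold change was then −0.02 over the 76 members. It was 0.14 in the large and −0.45 in the small subunit, so a GC dependence remained in the small subunit. By limma-voom on these values 7 members passed FDR 0.05, all lower in CTCF-dRBR, or 9.21% of 76. Of all genes 9.24% passed, 5.27% lower and 3.97% higher, so the share of members called in both directions together was at the background. Called lower were 9.21% of the members beside 5.27% of all genes, a difference that was not tested. They were MRPL4 (log2 fold change −0.63, adjusted p = 0.019), MRPL2 (−0.91, adjusted p = 0.024), the second row of MRPL30 (−1.33, adjusted p = 0.019), MRPS12 (−1.23, adjusted p = 0.033), MRPS23 (−0.32, adjusted p = 0.037), MRPL47 (−0.26, adjusted p = 0.045) and MRPL17 (−0.46, adjusted p = 0.046). MRPL47 was one of 13 members that were positive before and negative after the subtraction, and MRPL3 and MRPS18C were others. In the other direction 8 members, among them MRPL41 and MRPS18A, turned from negative to positive. The calls changed with the libraries kept, among members as over all genes. No member passed without CTCF-WT replicate 1, CTCF-WT replicate 2, CTCF-dRBR replicate 2 or CTCF-dRBR replicate 3, where 0 to 1 of all genes did. Without CTCF-WT replicate 3, 2 large and 1 small subunit rows passed, 4.0% of the members, all lower, where 3.21% of all genes were lower and 5.05% passed. Without CTCF-dRBR replicate 1, 34 members passed, all lower, where 13.3% of all genes were lower and 23.6% passed. Over the fits without 1 library the log2 fold change was −0.65 to −0.58 for MRPL4 and −1.03 to −0.83 for MRPL2. These fits hold fewer libraries, and why calls were lost was not tested.

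Leaving out CTCF-dRBR replicate 1 alone, which leaves 2 libraries in that group, gave 6 members past FDR 0.05 by limma-voom, all lower. Of all genes 3.9% were called in that fit, 2.37% lower and 1.52% higher. They were MRPL12 (log2 fold change −1.41, adjusted p = 0.028), MRPL24 (−0.72, adjusted p = 0.043), MRPS7 (−0.67, adjusted p = 0.044), MRPL2 (−0.92, adjusted p = 0.046), MRPL20 (−0.42, adjusted p = 0.046) and MRPL4 (−0.86, adjusted p = 0.049). In this fit 67 of 78 members were negative. With the GC trend also subtracted, the calls were 20 large and 14 small subunit rows, all lower, where 13.3% of all genes were lower and 23.6% passed. DESeq2 on all 6 libraries called 12 large and 7 small subunit rows, all lower, where 6.14% of all genes were lower. MRPL2 and MRPL4 passed in each of these fits and with the GC trend alone subtracted, 4 fits in all. The 4 fits draw on the same libraries, and the share of all genes that passed in all 4 was not counted. The recurrence is therefore no separate result about these 2 genes. Limma-voom and edgeR on all 6 libraries, and limma-voom with the replicate block, called 0 members and 0 of all genes. With libraries weighted by their quality, 54 members were called, 47 lower and 7 higher. That fit called 68.2% of all genes (35.8% lower and 32.5% higher). The weights were 5.65 for CTCF-WT replicate 2 and 6.19 for CTCF-dRBR replicate 2. They were 0.097 for CTCF-dRBR replicate 1 and 0.47 to 1.26 for the rest, so the fit rested mainly on replicate 2 of each group. Limma-trend on log2(TPM + 1) called 1 member, MRPL30, as higher, where 5.93% of all genes were called, 0.762% lower and 5.17% higher. On log2(TPM + 0.1) MRPL30 was again the one member called, where 5.41% of all genes were called, 0.883% lower and 4.53% higher.

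**Figure D4:**
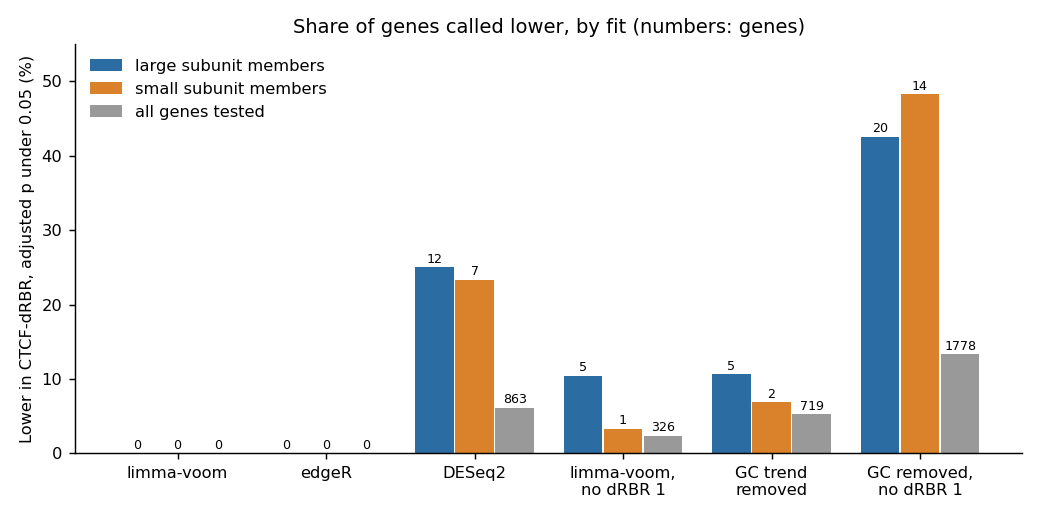
Bars give the percent of large subunit members, small subunit members and all tested genes that were lower in CTCF-dRBR at FDR 0.05 in 6 fits, with the number of genes above each bar. The count of members is 0 by limma-voom and edgeR on all libraries and highest, at 20 and 14, with the GC trend removed and CTCF-dRBR replicate 1 left out.

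The summed levels of the subunits differed by little between the groups. The large subunit rows summed to 2136, 2151 and 2077 CPM in CTCF-WT and 2023, 1816 and 1818 CPM in CTCF-dRBR, with no overlap. The small subunit rows summed to 1503, 1521 and 1487 CPM against 1492, 1316 and 1334, where CTCF-dRBR replicate 1 lay among the CTCF-WT libraries. Together the members took 0.339% to 0.365% of all counts in CTCF-WT and 0.322% to 0.350% in CTCF-dRBR.

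TPM, which allow levels of different genes to be compared per length, moved in another way. Protein-coding genes held 30.3%, 35.8% and 52.4% of the TPM in CTCF-WT and 63.2%, 54.5% and 43.5% in CTCF-dRBR, the rest falling to noncoding RNAs. The summed TPM of the large subunit rows was 1477 ± 446.8 in CTCF-WT and 1834 ± 330.4 in CTCF-dRBR (SD, n = 3), with overlapping ranges. Rescaled so that the coding genes of every library have the same total, the large subunit rows held 3682, 3742 and 3769 in CTCF-WT and 3392, 3432 and 3418 in CTCF-dRBR. The small subunit rows held 1995, 2036 and 2040 against 2002, 1875 and 1880, where CTCF-dRBR replicate 1 again lay within CTCF-WT.

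By mean TPM over the 6 libraries, the highest members were MRPL51 (125.6 TPM), MRPL3 (98.6) and MRPL52 (76.9) in the large and MRPS18C (69.4), MRPS28 (57.8) and MRPS30 (54.4) in the small subunit. The lowest, apart from the second rows of MRPL30 and MRPS17 at 0.903 and 0.883 TPM, were MRPL41 (7.16), MRPS17 (10.6), MRPS2 (10.7) and MRPL22 (11.3). TPM of single genes moved with the coding share of the library, so that MRPL51 ranged from 79.4 to 193.2 TPM and MRPL3 from 43.98 to 178.0. Within each of the 6 libraries MRPL51 was above MRPL3, MRPS18C above MRPS28, and MRPL41 below MRPS17. The order of MRPL3 and MRPL52, of MRPS28 and MRPS30, of MRPS17 and MRPS2, and of MRPS2 and MRPL22 changed between libraries. Differences in mean TPM between the groups reached the smallest two-sided p of the exact permutation test with 3 libraries against 3, 0.1, for MRPL12, MRPL4, MRPL2, MRPS12, MRPS34 and the second row of MRPL30 among the named members. All of these were lower in CTCF-dRBR. On log2(TPM + 1), however, only 23 of all 78 members (29.5%) had a negative fold change, where 17.6% of all genes did. That p means only that the TPM ranges of the groups did not overlap, and the share of all genes with separate TPM was not computed. Most of these members were named for a small limma-voom p on the same libraries, so their separation is no independent result.

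The 48 and 30 rows were also divided into lists by bacterial counterpart, for all but MRPS36 and with MRPS30 and MRPS18A placed in the large subunit. MRPS18A and MRPS18B were listed as mitochondria-specific although they are paralogs of MRPS18C, so the lists do not strictly follow descent. The large subunit proteins with bacterial counterparts (31 rows) had a median log2 fold change of −0.32 and the mitochondria-specific ones (19) −0.27. In the small subunit the medians were −0.19 for 17 and −0.17 for 10 rows. With the GC trend subtracted, they were −0.25, −0.08, −0.33 and −0.31 in the same order, over 31, 18, 16 and 10 rows. No difference between these classes was tested. MRPS36 itself had 24.8, 24.7 and 26.04 CPM in CTCF-WT and 32.3, 24.1 and 24.4 in CTCF-dRBR (limma-voom log2 fold change 0.06 ± 0.14 (SE), adjusted p = 0.77).

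Other genes of mitochondrial translation were read from the same fit in 5 lists, and 0 of these genes passed FDR 0.05 by limma-voom. Of 7 ribosome subunits with other names, 6 were negative (median −0.22), 3 of them at an unadjusted p under 0.05. GADD45GIP1, a large subunit protein, had 42.8, 38.5 and 33.6 CPM in CTCF-WT and 23.8, 17.7 and 25.4 in CTCF-dRBR (limma-voom log2 fold change −0.80 ± 0.18 (SE), adjusted p = 0.12). CHCHD1, a small subunit protein, had 31.0, 28.8 and 23.5 against 11.6, 20.4 and 19.8 (−0.68 ± 0.24, limma-voom adjusted p = 0.17). PTCD3, the one positive gene, had 134.0, 143.2 and 156.1 against 157.1, 168.3 and 157.5 (0.16 ± 0.10, limma-voom adjusted p = 0.29).

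Translation factors were balanced, with 7 of 14 negative and a median of −0.0022. TSFM, the exchange factor of the elongation factor TUFM, had 38.0, 37.3 and 31.7 CPM in CTCF-WT and 21.6, 23.9 and 28.1 in CTCF-dRBR (limma-voom log2 fold change −0.53 ± 0.14 (SE), adjusted p = 0.14). TUFM had 223.5, 219.9 and 201.6 against 81.3, 150.5 and 191.5, and MTRF1, of the release factor family, had 11.6, 12.8 and 15.1 against 23.2, 18.3 and 16.0. GFM2, which takes part in ribosome recycling, had 47.9, 51.3 and 54.0 against 71.1, 57.9 and 55.2. TUFM was below and MTRF1 and GFM2 were above CTCF-WT in all 3 libraries, most in CTCF-dRBR replicate 1 (limma-voom adjusted p = 0.21, 0.17 and 0.24).

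Assembly factors and rRNA-modifying enzymes had 16 of 23 genes negative and a median of −0.21. MRM1, an rRNA methyltransferase, had 11.2, 11.0 and 7.66 CPM in CTCF-WT and 2.74, 3.97 and 5.38 in CTCF-dRBR, and MTG1, an assembly GTPase, had 23.1, 22.6 and 18.6 against 8.89, 12.1 and 14.5 (limma-voom log2 fold changes −1.30 ± 0.28 and −0.86 ± 0.20 (SE), adjusted p = 0.11 and 0.12). METTL15 (0.31 ± 0.17) and MALSU1 (0.16 ± 0.14) had the smallest p among the positive genes, with limma-voom adjusted p of 0.25 and 0.41. Of 20 genes for mitochondrial aminoacyl-tRNA synthesis, 15 were negative (median −0.24). EARS2, which charges tRNA with glutamate, had 32.5, 34.0 and 32.5 against 17.3, 20.95 and 20.7, with every CTCF-dRBR library well below CTCF-WT (−0.74 ± 0.12, limma-voom adjusted p = 0.096). PET112, a subunit of the amidotransferase, had 26, 25.5 and 26.8 against 21.7, 19.3 and 18.9 (−0.40 ± 0.11, limma-voom adjusted p = 0.14). RARS2 (0.26 ± 0.17) and GATC (0.11 ± 0.09) led the positive genes.

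In the list for mitochondrial transcription and mRNA stability 4 of 10 genes were negative and the median was 0.05. TFB2M, a transcription initiation factor, had 26.96, 27.6 and 29.2 CPM in CTCF-WT and 25.2, 23.6 and 21.8 in CTCF-dRBR, and POLRMT, the mitochondrial RNA polymerase, had 48.5, 50.3 and 36.6 against 9.83, 25.3 and 38.3 (both limma-voom adjusted p = 0.21). MTERF (0.29 ± 0.20) and TEFM (0.14 ± 0.13) had the smallest p among the positive genes. After subtraction of the GC trend 9 genes over the 5 lists passed FDR 0.05, all lower, where 9.24% of all genes passed and 5.27% were lower: TSFM, ERAL1, DDX28, EARS2, IARS2, VARS2, PET112, TFB2M and LRPPRC. Leaving out 1 library in that fit left 0 of these lists' genes called, except 2 without CTCF-WT replicate 3 and 24 without CTCF-dRBR replicate 1. All of them were lower, where 3.21% and 13.3% of all genes were lower and 5.05% and 23.6% passed. EARS2 was also past FDR 0.05 without CTCF-dRBR replicate 1 (adjusted p = 0.033) and by DESeq2 (adjusted p = 1.09e-06).

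**Figure D5:**
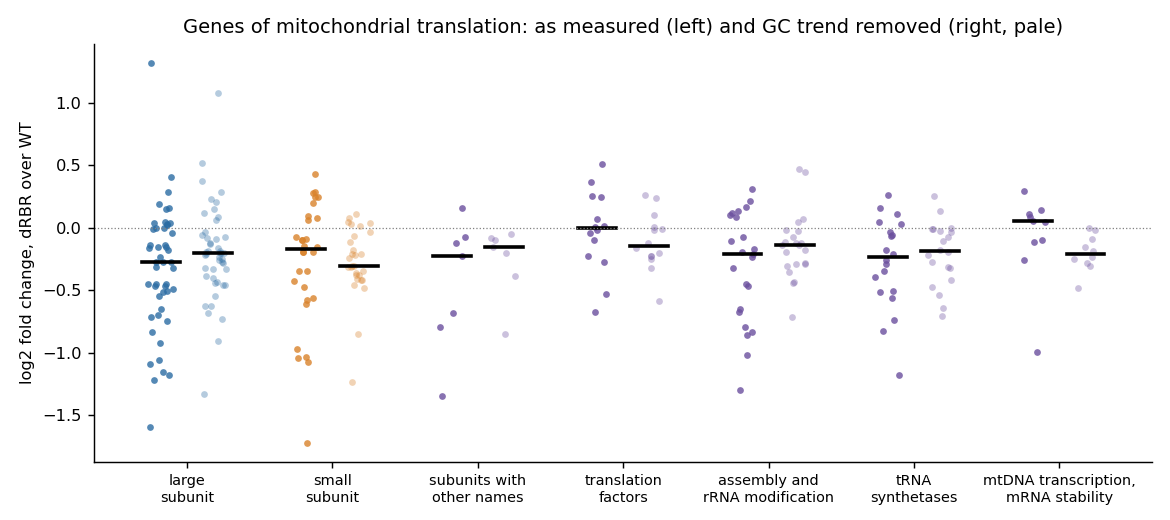
Points are log2 fold changes of single genes for the 2 subunits and the 5 other lists, as measured (left of each pair) and with the GC trend removed (right, pale), with black bars at the medians. The medians of the translation factors and of the transcription list, −0.0022 and 0.05 as measured, lie below 0 after the removal.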

How the data were processed

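Total RNA of 3 CTCF-WT and 3 CTCF-dRBR libraries was prepared with a ribosomal RNA depletion kit. Per the labels and methods, the authors trimmed reads with Trim Galore 0.6.3, aligned them with STAR 2.7.9a to hg19 and quantified Gencode genes with RSEM 1.3.1. The authors deposited RSEM expected counts and TPM per gene for each library. Expected counts divide reads shared between overlapping rows. The labels call the reads single-end and the methods paired-end. The 92 spike-in rows summed to 0 counts and were left out.

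Expected counts were normalized by TMM and tested with limma-voom (limma 3.58.1, edgeR 4.0.16, R 4.3.3) on the genes that reached 1 CPM in at least 1 library, with Benjamini-Hochberg adjustment over 14044 genes and a threshold of FDR 0.05. CPM refer to TMM-scaled totals, and 3 counts amount to 0.0564 to 0.0999 CPM. Counts were rounded for edgeR and DESeq2 1.42.0. TPM were tested by an exact two-sided permutation test and by limma-trend with 1 or 0.1 added before the log2. GC content came from a later Gencode annotation on GRCh37, matched by Ensembl ID (97.22% of tested genes), and a loess trend (span 0.5, degree 2, prior count 1) was subtracted per library. Scripts were tested on simulated data.

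Named genes were, per subunit, the 5 smallest p, the 3 highest and 3 lowest mean TPM, the 2 smallest p of the sign opposite to the median, calls without CTCF-dRBR replicate 1, MRPL12 and the MRPS18 paralogs, and, per other list, the 2 smallest p in each direction. MRPL46, MRPS11, MRPS36 and genes named only as calls of an alternative fit were chosen after their values were seen. The members and lists were chosen with earlier results of these data known. Protein features were not analysed here.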

Additional observations from a re-analysis of the deposited data

How the results depend on the processing

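The medians of the subunits, their sums and 26 named members were recomputed under the alternatives named here, of which quality weights with the GC trend removed and the GC trend removed without each other library were chosen after seeing the data. The cause of each change was not tested. edgeR, DESeq2 size factors, upper quartile and library-size scaling, protein-coding genes only and the replicate block kept the sign and side of the threshold of all 26 named members. Depth limits the second rows of MRPL30 and MRPS17 most.

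Genes past FDR 0.05, 0 of all genes with limma-voom, numbered 1619 with DESeq2, 9583 with quality weights, 833 and 760 on log2(TPM + 1) and log2(TPM + 0.1), 1261 with the GC trend removed, 3151 also without CTCF-dRBR replicate 1, 8808 with quality weights and the GC trend removed, and 1 and 688 with it removed and without CTCF-WT replicate 2 or 3. Leaving out 1 library gave 0 to 535. For the large subunit, the counts in the same order were 12, 34, 1, 1, 5, 20 and 38, then 2 without CTCF-WT replicate 3, and 0 to 5 leaving out 1 library. For the small subunit they were 7 with DESeq2, 20 with quality weights, 2 with the GC trend removed, 14 also without CTCF-dRBR replicate 1, 22 with quality weights and the GC trend removed, 1 without CTCF-WT replicate 3, and 0 to 1 leaving out 1 library. For the 5 other lists they were 11, 45, 9, 24, 40 and 2 in that order, and 0 to 3.

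The large subunit median (−0.27) was −0.36 with no filter, 0.24 and 0.25 on the TPM scales, −0.11 with the length trend removed, and −0.19 and −0.18 with the GC trend removed and without CTCF-dRBR replicate 2 or 3. The small subunit median (−0.17) was −0.23 with quality weights, −0.097 with library size only, −0.25 with no filter, 0.35 and 0.37 on the TPM scales and −0.30 with the GC trend removed. With the GC trend removed it was −0.30 with the replicate block, −0.26 without CTCF-dRBR replicate 1, −0.32 with quality weights, and −0.23, −0.28, −0.31, −0.25 and −0.25 without CTCF-WT replicates 1, 2, 3 or CTCF-dRBR replicates 2, 3. Leaving out 1 library gave −0.23 to −0.14. The log2 ratio of summed CPM (−0.17 large, −0.12 small) was 0.31 and 0.37 from TPM, −0.099 for the large subunit with library size only and −0.22 for the small subunit with the GC trend removed.

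Signs turned for 12 named members. On log2(TPM + 1) and log2(TPM + 0.1), MRPL52 was at 0.0056 and 0.0059, MRPL51 at 0.51 and 0.52, MRPL22 at 0.40 and 0.44, MRPS7 at 0.11 and 0.11, MRPS15 at 0.046 and 0.048, MRPS28 at 0.46 and 0.46, and MRPS17 at 0.33 and 0.36. With the length trend removed MRPS28 was at 0.11 and MRPS17 at 0.024. With quality weights MRPL3 was at −0.061, MRPL22 at 0.042 and MRPS18C at −0.057, and MRPL3 was at −0.057 with no filter. With the GC trend removed, and then with the replicate block, MRPL3 was at −0.21 and −0.21, MRPL41 at 0.23 and 0.24, MRPS18C at −0.24 and −0.23, and MRPS18A at 0.049 and 0.044. Also without CTCF-dRBR replicate 1, MRPL3 was at −0.25, MRPS18C at −0.30, MRPS14 at −0.0060 and MRPS18A at 0.022. With quality weights and the GC trend removed, MRPL3 was at −0.27, MRPL41 at 0.0022, MRPS18C at −0.33, MRPS14 at −0.076 and MRPS18A at 0.21. With the GC trend removed and without CTCF-WT replicates 1, 2 and 3, MRPL3 was at −0.25, −0.19 and −0.19, MRPL41 at 0.19, 0.23 and 0.30, MRPS18C at −0.19, −0.23 and −0.31, and MRPS18A at 0.0051, 0.0089 and 0.13. Without CTCF-dRBR replicates 2 and 3, MRPL3 was at −0.19 and −0.19, MRPL41 at 0.37 and 0.50, and MRPS18C at −0.20 and −0.21. Without CTCF-dRBR replicate 3, MRPS17 was at 0.022 and MRPS18A at 0.14. Leaving out 1 library gave −0.12 to 0.15 for MRPL3, −0.26 to 0.039 for MRPL22 and −0.12 to 0.23 for MRPS18C.

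Between libraries with the same number, deviations from the group means correlated at −0.34, 0.10 and −0.47. These deviations include the GC trend of each library, so they cannot show whether the numbers pair the libraries. With the replicate block 16 members were at an unadjusted p under 0.05, or 20.5%, against 30 (38.5%) without it, while the share of all genes went from 25.4% to 10.1%. With the block limma-voom called 0 genes and 0 members, also with the GC trend removed.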

Other observations

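The 67 MRPL and MRPS rows of other biotypes, nearly all annotated as pseudogenes, held more counts relative to the members in CTCF-dRBR. Their expected counts amounted to 0.379%, 0.395% and 0.458% of the members' counts in CTCF-WT and 0.671%, 0.599% and 0.534% in CTCF-dRBR, without overlap. Their summed TPM was 5.19, 9.26 and 14 in CTCF-WT and 30.2, 18.1 and 13.5 in CTCF-dRBR, with overlap. Reads of a pseudogene and its parent gene are hard to assign, so these shares are uncertain. The members' counts, the base of the ratio, were themselves 0.339% to 0.365% of all counts in CTCF-WT and 0.322% to 0.350% in CTCF-dRBR. CTCF-dRBR replicate 1, with the lowest GC correlation, had the highest ratio, and the part of base composition in it was not tested.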
